A study of Homo sapiens with 12 samples.

Results

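The genes described here are 8 transcription factors that set or oppose pancreatic identity: PDX1, SOX9, ONECUT2, GATA4, GATA6, FOXA1 and FOXA2 of the pancreatic lineage, and TP63 of squamous epithelium. They were listed by name, and a gene was read from the probe sets whose annotation names that symbol alone. Of the 8 factors, 7 have such a probe set, 22 probe sets in all, among 19775 genes on the array. No probe set in the annotation used names TP63 alone, so TP63 was not analysed here, and the squamous side is described below through genes known as its partners and targets. Where a factor has several probe sets, the one with the highest mean log2 signal was used and the others served as a check.

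The study measured gene expression with Affymetrix arrays in 2 established human lines of pancreatic cancer, AsPC-1 (grown from ascites) and BxPC-3 (grown from a primary tumour). Cells were kept overnight in 2.5% foetal calf serum and then either not treated or exposed for 4 h to 1 µM PMA, a phorbol ester that activates protein kinase C. The 4 groups, AsPC-1 untreated, AsPC-1 PMA, BxPC-3 untreated and BxPC-3 PMA, hold 3 arrays each. Replicates 1, 2 and 3 are passages 8, 10 and 12 of AsPC-1 and passages 7, 9 and 11 of BxPC-3, so treated and untreated arrays pair by passage within a line. PMA was dissolved in DMSO, and the labels do not say whether untreated cells received DMSO. Each kind of tumour is represented by a single line, so a difference between the lines cannot be told apart from a difference between any other features of those 2 lines.

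PDX1 is required for the pancreas to form and later marks islet beta cells. SOX9 maintains pancreatic progenitors and persists in duct cells, and the ONECUT factors act upstream of endocrine and duct development. GATA4 and GATA6 are zinc-finger factors with partly overlapping roles in pancreatic development, and GATA6 is a marker of the classical subtype of pancreatic cancer. FOXA1 and FOXA2 are forkhead pioneer factors that open chromatin in endoderm. TP63 encodes p63, the factor that drives squamous epithelium and the basal-like or squamous programme of some pancreatic tumours.

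RefSeq promoter entries (GRCh38.p14) were at hand for 3 of the 7 measured factors, which differ in how the lines compare below. ONECUT2 was lower in BxPC-3, GATA6 had a like signal in both lines and FOXA1 was higher in BxPC-3. The 250 bases before each start are shown, 5′ to 3′ on the gene's strand, with capitals for a motif match. They lie at chr18:57435124-57435373 on the + strand (ONECUT2), chr18:22169339-22169588 on the + strand (GATA6) and chr14:37595250-37595499 on the - strand (FOXA1).
ONECUT2: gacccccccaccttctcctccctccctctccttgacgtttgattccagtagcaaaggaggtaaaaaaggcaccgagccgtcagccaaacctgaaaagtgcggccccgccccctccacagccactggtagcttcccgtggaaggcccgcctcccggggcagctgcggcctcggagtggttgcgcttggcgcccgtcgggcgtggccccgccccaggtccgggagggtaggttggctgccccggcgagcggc
GATA6: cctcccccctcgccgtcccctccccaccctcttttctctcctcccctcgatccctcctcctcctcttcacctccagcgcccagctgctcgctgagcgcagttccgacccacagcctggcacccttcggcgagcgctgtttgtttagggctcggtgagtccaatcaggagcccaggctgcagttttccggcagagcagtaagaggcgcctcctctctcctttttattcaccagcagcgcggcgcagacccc
FOXA1: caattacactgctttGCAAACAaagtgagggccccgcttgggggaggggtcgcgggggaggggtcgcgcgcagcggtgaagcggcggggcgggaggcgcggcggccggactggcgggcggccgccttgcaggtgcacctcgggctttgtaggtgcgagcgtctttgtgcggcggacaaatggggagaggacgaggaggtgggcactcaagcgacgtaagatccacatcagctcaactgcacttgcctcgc
All 3 windows are rich in CpG. ONECUT2 holds 20 CpG dinucleotides at 68.8% GC, GATA6 16 at 64.4% and FOXA1 26 at 67.2%, against medians of 11 and 58% over the 35116 promoters of the table. Motifs were searched on both strands. The motif TGANTCA of AP-1, the factor family that PMA is known to activate, is held by 6.57% of all promoters of this length. The forkhead motif TGTTTNC is held by 15.5%, the motif AGATAA of GATA factors by 9.17%, the motif ACAATG of SOX factors by 9.29% and the motif ATCNAT of ONECUT factors by 15%. The sole match in these 3 windows was a forkhead motif, GCAAACA on the printed strand, 235 bases before the start of FOXA1. No match says only that these letters are not in these windows.

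Values are MAS5 signal intensities, and differences are on the scale of log2(signal + 3), which understates changes of dim genes. Differences were tested with limma across all 16099 genes that passed a filter on low signals, with Benjamini-Hochberg adjustment, and a gene was called at an adjusted p under 0.05. All 7 measured factors passed the filter, but FOXA2 did so through its BxPC-3 arrays alone, GATA4 and ONECUT2 largely through AsPC-1 arrays, and PDX1 through 4 arrays. Signal was above the filter level (8.18 to 10.2, the 40th percentile of each array) on all 12 arrays for SOX9 and GATA6, on 11 for FOXA1, 7 for ONECUT2, 6 for FOXA2 and 5 for GATA4. Probe sets differ in efficiency, so the level of one factor is not set against that of another.

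All 5 epithelial markers examined lay above the filter level on all 12 arrays, with KRT19 at group means of 4128 to 6524. Of the markers of acinar cells, none but CELA3A (14.7 to 23.0) lay above that level on all arrays of a group, and of the endocrine markers none did. LUM, on a fibroblast list of 5 genes, was at 2478 and 2560 in untreated and PMA-treated AsPC-1 against 52.3 and 35.7 in BxPC-3, and LYZ, on a leukocyte list with 4 measured genes, was at 2240 and 2177 against 2.38 and 4.24, while the leukocyte marker PTPRC had group means of 3.18 to 5.67 and the fibroblast marker PDGFRB of 1.26 to 5.53. Summed over the list, fibroblast markers read 1340 to 3416 in AsPC-1 and 143 to 225 in BxPC-3, with 1 to 3 and 4 of 5 above the filter level on all arrays of a group, and leukocyte markers 1952 to 2756 and 26.7 to 44.0, with 3 and 1 to 2 of 4. These markers moved with the line, and their part in the line differences was not tested. LYZ is also on the list of classical tumour subtype genes used below. The tumour suppressor SMAD4, known to be deleted in BxPC-3, had signals of 111 to 214 in AsPC-1 and 0.104 to 4.60 in BxPC-3, as the line labels require. One array stood apart. AsPC-1 PMA replicate 1 had a mean correlation of 0.921 across genes with its own group. Its correlation with the untreated array of its passage was 0.964, so PMA results are also given without this array. That choice was made on these same values, and p-values of fits without the array do not allow for it. For ACTB, signal at the 3′ end divided by that at the 5′ end was 2.56, 2.95 and 4.15 in untreated and 1.84, 1.99 and 2.02 in PMA-treated BxPC-3, and its part in the results for that line was not tested.

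**Figure D1:**
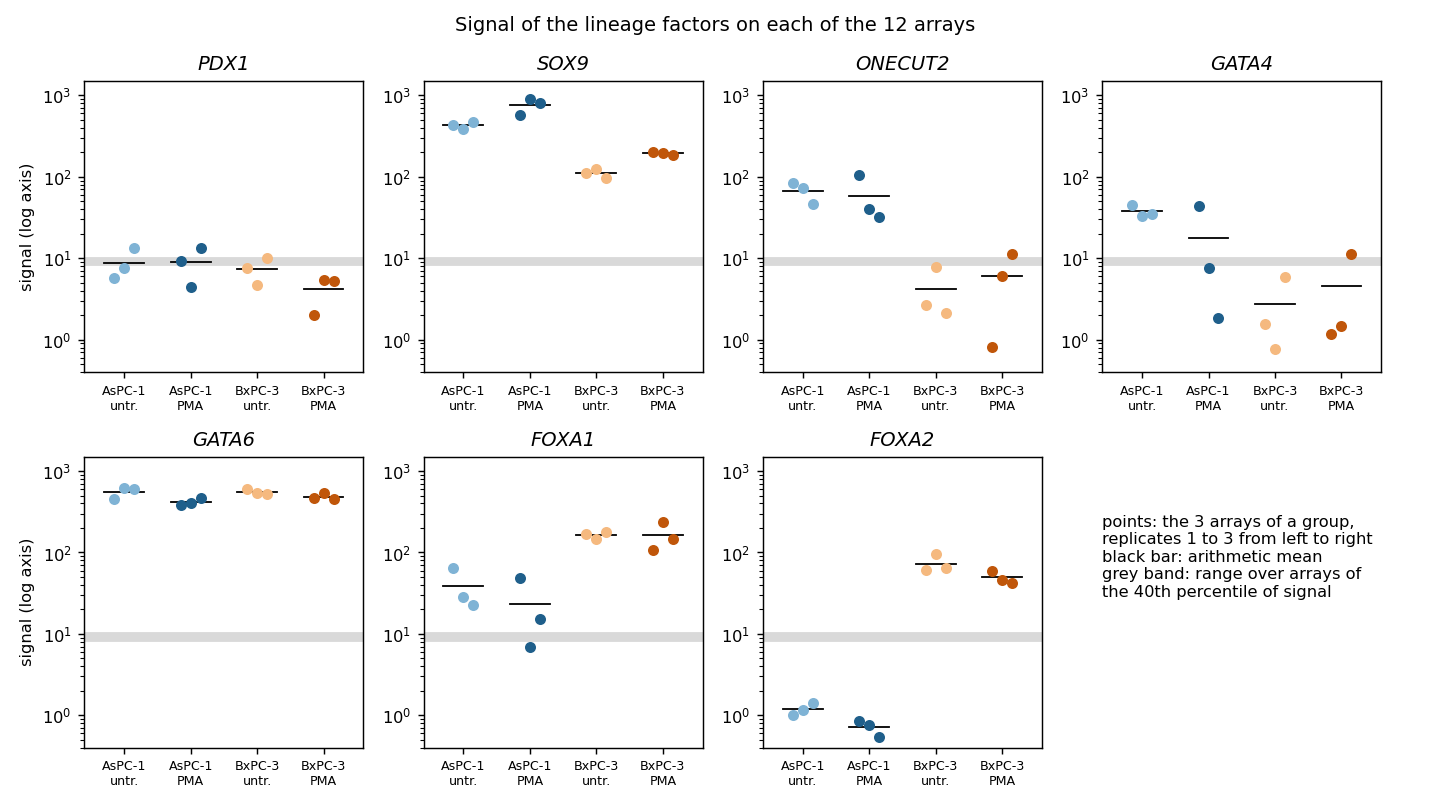
Signal of the 7 measured factors on each of the 12 arrays, on a log axis, with points for arrays, black bars for arithmetic group means and a grey band for the filter level. FOXA2 and FOXA1 lie higher in BxPC-3, SOX9, ONECUT2 and untreated GATA4 lie higher in AsPC-1, and the GATA6 groups overlap in every comparison.

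Between untreated lines, the forkhead factors FOXA1 and FOXA2 were higher in BxPC-3, and SOX9, ONECUT2 and GATA4 were higher in AsPC-1, while GATA6 and PDX1 did not pass the test. That is 5 of 7 factors called, 2 higher and 3 lower in BxPC-3, where 32.4% of all tested genes were called, 16.8% higher and 15.6% lower. The same 5 factors were those whose groups did not overlap, as in 50.6% of all tested genes. After PMA, 4 of the 7 were called, 2 higher and 2 lower, where 33.5% of all genes were, 18.3% higher and 15.2% lower, and GATA4 was the factor no longer called. Those 4 were also the factors whose groups did not overlap after PMA, as in 43.4% of all genes. The untreated and the PMA-treated line comparisons use different arrays.

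FOXA2 was higher in BxPC-3. Its signal was 60.4, 95.3 and 64.1 in untreated BxPC-3 and 59.9, 46.4 and 41.8 after PMA, but 1.02, 1.17 and 1.41 in untreated AsPC-1 and 0.855, 0.767 and 0.540 after PMA. Every BxPC-3 array was above the filter level and every AsPC-1 array near the lowest signals of the array. FOXA2 thus entered the test only because it is high in BxPC-3, and its p-values for the line difference do not allow for that. The log2 difference of BxPC-3 from AsPC-1 was 4.16 ± 0.30 untreated (SE, n = 3 against 3, adjusted p = 1.96e-07) and 3.80 ± 0.30 after PMA (adjusted p = 4.78e-07). The size of this difference depends on the scale, since one line is near 0: untreated it was 5.05 with a pseudocount of 1, 2.35 with one of 16 and 2.16 over the mean of the probe sets. A further probe set, of the 3 that name it, differed in the same direction by 2.76 ± 0.44 untreated and 1.95 ± 0.44 after PMA (adjusted p = 0.000331 and 0.00409), whereas the third, which was dim, did not pass (-0.44 and 0.67, adjusted p = 0.590 and 0.392).

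FOXA1, the closest relative of FOXA2 in the set, had signals of 168, 148 and 178 in untreated BxPC-3 and 108, 239 and 148 after PMA. In AsPC-1 they were 64.7, 28.0 and 22.9 untreated and 48.2, 6.83 and 15.2 after PMA. Passage 8 was the highest AsPC-1 array in both conditions and still lay below every BxPC-3 array. The line difference was 2.14 ± 0.52 untreated (SE, adjusted p = 0.00590) and 2.93 ± 0.52 after PMA (adjusted p = 0.000589). The other probe set of FOXA1 had the same direction untreated (1.82 ± 0.58, adjusted p = 0.0303) and did not pass after PMA (0.57 ± 0.58, adjusted p = 0.511).

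SOX9 was lower in BxPC-3. Its signal was 438, 390 and 472 in untreated AsPC-1 and 111, 126 and 96.4 in untreated BxPC-3. After PMA it was 576, 899 and 816 in AsPC-1 and 203, 196 and 183 in BxPC-3. The order of the group means was AsPC-1 PMA, AsPC-1 untreated, BxPC-3 PMA and BxPC-3 untreated, and no 2 groups overlapped. The log2 difference of BxPC-3 from AsPC-1 was -1.94 ± 0.20 untreated (SE, adjusted p = 4.39e-06) and -1.94 ± 0.20 after PMA (adjusted p = 4.67e-06). The second probe set gave -1.37 ± 0.63 untreated (adjusted p = 0.127) and -3.03 ± 0.63 after PMA (adjusted p = 0.00241).

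That second set varied far more among AsPC-1 passages. It read 77.4, 202 and 441 in the untreated AsPC-1 arrays, where the first set read 438, 390 and 472, and 127, 806 and 703 after PMA. In BxPC-3 it read 86.2, 57.3 and 75.6 untreated and 54.4, 44.2 and 47.2 after PMA. The 2 probe sets of SOX9 therefore disagree on the untreated passages of AsPC-1 and, below, on the direction of the PMA difference in BxPC-3.

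ONECUT2 was also lower in BxPC-3. Its signal was 83.1, 73.4 and 45.8 in untreated AsPC-1 and 105, 39.7 and 31.8 after PMA, against 2.65, 7.76 and 2.14 in untreated BxPC-3 and 0.808, 6.04 and 11.2 after PMA. The lowest AsPC-1 array lay above the highest BxPC-3 array. The line difference was -3.34 ± 0.53 untreated (SE, adjusted p = 0.000259) and -2.79 ± 0.53 after PMA (adjusted p = 0.00105). With a pseudocount of 16 these were -2.03 and -1.67. ONECUT2 passed the filter largely through AsPC-1 arrays, and the p-values for its line difference do not allow for that. Of its 4 other probe sets, those with the next highest means were called in the same direction in both comparisons, at -4.13 and -3.04 for one and -3.62 and -3.09 for the other. A dim set was called after PMA (-1.52, adjusted p = 0.0164) and not in untreated cells (-0.19, adjusted p = 0.781), and 1 probe set did not pass the filter.

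GATA4 had signals of 44.5, 32.8 and 35.3 in untreated AsPC-1 and of 1.57, 0.765 and 5.93 in untreated BxPC-3, a difference of -2.91 ± 0.71 (SE, adjusted p = 0.00639). It was -1.52 with a pseudocount of 16 and -1.14 over the mean of the probe sets, called in both. GATA4 passed the filter largely through AsPC-1 arrays, and its p-values for the line difference do not allow for that. After PMA the AsPC-1 arrays read 43.3, 7.59 and 1.82 and the BxPC-3 arrays 1.18, 1.45 and 11.2. Only passage 8 of AsPC-1, the array that stood apart, kept the untreated level, and the groups overlapped. The line difference after PMA was -1.06 ± 0.71 (adjusted p = 0.292), and -0.16 without that array (adjusted p = 0.865). The 4 other probe sets of GATA4 were dim, at most 25.7 on any array, and limma called 0 of the 3 that passed the filter in either comparison, with 2 of them at an unadjusted p under 0.05 in untreated cells (-1.23 and -1.15).

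GATA6, its paralogue, had like signals in both lines. They were 450, 628 and 597 in untreated AsPC-1, 605, 544 and 520 in untreated BxPC-3, 386, 400 and 464 in AsPC-1 after PMA and 471, 532 and 456 in BxPC-3 after PMA. The untreated groups overlapped, with a difference of 0.01 ± 0.17 (SE, 95% interval -0.35 to 0.37, adjusted p = 0.981). After PMA the difference was 0.22 ± 0.17 (95% interval -0.14 to 0.58, adjusted p = 0.348). The other probe set of GATA6 was dim in all groups, from 5.80 to 25.0.

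PDX1 was near the lowest signals in both lines. Its brightest probe set read 5.73, 7.48 and 13.3 in untreated AsPC-1, 9.15, 4.48 and 13.4 after PMA, 7.48, 4.70 and 10.1 in untreated BxPC-3 and 2.02, 5.33 and 5.29 after PMA, and 4 of the 12 values were above the filter level. The groups of each comparison overlapped, and its line differences were -0.17 ± 0.43 untreated (95% interval -1.09 to 0.76, adjusted p = 0.807) and -0.70 ± 0.43 after PMA (95% interval -1.63 to 0.23, adjusted p = 0.243). The other 2 probe sets of PDX1 were above the filter level on 0 arrays.

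**Figure D2:**
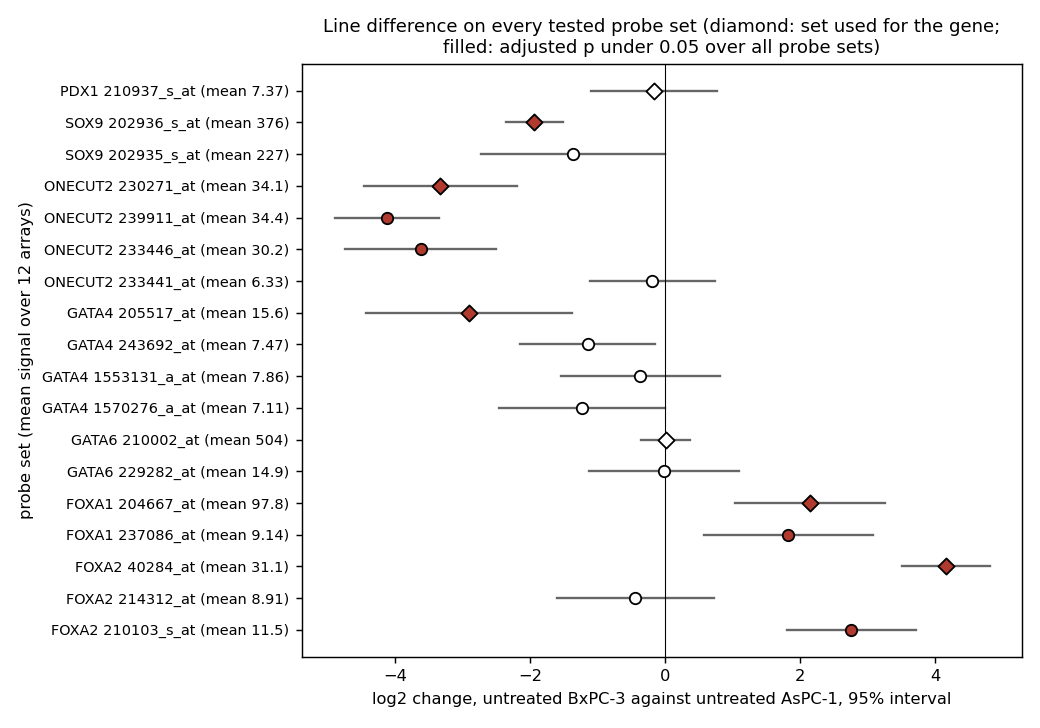
Difference of BxPC-3 from AsPC-1 in log2(signal + 3) units for each probe set of the measured factors that passed the filter, in untreated cells, with 95% intervals; diamonds mark the set used for a gene, and filled points an adjusted p under 0.05. The called probe sets of FOXA1 and FOXA2 lie above 0 and those of SOX9, ONECUT2 and GATA4 below 0.

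After PMA for 4 h, 1 of these factors was called, in BxPC-3 alone and not in every alternative fit. It was SOX9, called higher, and the 6 others did not pass, which does not show that they were unchanged. That is 1 of 7 factors in BxPC-3, where 5.82% of all tested genes were called, 2.52% higher and 3.3% lower. In AsPC-1 limma called 0 of the 7, where 1.96% of all genes were called, 1.24% higher and 0.721% lower, with SOX9, GATA4 and GATA6 at an unadjusted p under 0.05. Groups did not overlap for 2 of the 7 in each line, SOX9 and FOXA2, as in 38.9% of all genes in BxPC-3 and 14.4% in AsPC-1.

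For SOX9 the log2 difference after PMA was 0.79 ± 0.20 in BxPC-3 (SE, adjusted p = 0.0314) and 0.79 ± 0.20 in AsPC-1 (adjusted p = 0.0582). Within passages it was 0.86, 0.62 and 0.90 in BxPC-3 and 0.39, 1.20 and 0.79 in AsPC-1, so all 6 pairs were higher after PMA. Blocking on passage gave an adjusted p = 0.0371 in AsPC-1, and without AsPC-1 PMA replicate 1 the difference there was 0.98 (adjusted p = 0.000689). In AsPC-1 SOX9 was called in 3 of 23 alternative fits. Leaving out each array gave differences of 0.66 to 0.98 in that line (adjusted p up to 0.267). The BxPC-3 call was lost when any of the 6 BxPC-3 arrays was left out (adjusted p up to 0.144), and the second probe set gave the opposite sign there, -0.55 ± 0.63 (adjusted p = 0.705). In AsPC-1 the second set gave 1.11 ± 0.63 (adjusted p = 0.436).

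The response of SOX9 in BxPC-3 minus that in AsPC-1 was 0.00 ± 0.28 (SE, 95% interval -0.59 to 0.60, adjusted p = 1.00). For the difference of responses limma called 0 of 7 factors, where 0.491% of all genes were called, 0.317% higher and 0.174% lower, and 0 of the 7 had an unadjusted p under 0.05. GATA4 had the largest difference, 1.85 ± 1.01 (95% interval -0.32 to 4.02, adjusted p = 0.650). The intervals of the 7 factors are wide enough to hold differences of over 0.5 on the log2 scale.

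The PMA differences of GATA4 and FOXA1 in AsPC-1 depended on single arrays. GATA4 differed after PMA by -1.59 ± 0.71 in AsPC-1 (adjusted p = 0.284), with -0.04, -1.76 and -2.99 in passages 8, 10 and 12. FOXA1 differed by -0.86 ± 0.52 (adjusted p = 0.448), with -0.40, -1.66 and -0.51. Without AsPC-1 PMA replicate 1 both were called, GATA4 at -2.49 (adjusted p = 0.00959) and FOXA1 at -1.50 (adjusted p = 0.0202), and with SOX9 that made 3 of 7 factors. In that fit 19.55% of all genes were called in AsPC-1, against 1.96% with all 12 arrays. Its p-values do not allow for the choice of the array left out. Leaving out each array in turn gave -2.49 to -0.86 for GATA4 in AsPC-1 (limma adjusted p from 0.00959 to 0.698). For FOXA1 there the range was -1.50 to -0.31 (adjusted p from 0.0202 to 0.876).

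The other factors did not pass after PMA. GATA6 was lower in all 6 passages, by -0.22, -0.64 and -0.36 in AsPC-1 and -0.36, -0.03 and -0.19 in BxPC-3, with -0.41 ± 0.17 (adjusted p = 0.237) and -0.19 ± 0.17 (adjusted p = 0.577). FOXA2 in BxPC-3 differed by -0.53 ± 0.30 (adjusted p = 0.355), and every PMA array lay below every untreated array. In AsPC-1 its difference was -0.17 ± 0.30 (adjusted p = 0.834), between signals near 1. ONECUT2 differed by 0.21 ± 0.53 in BxPC-3 and -0.33 ± 0.53 in AsPC-1, and PDX1 by -0.54 ± 0.43 and 0.00 ± 0.43, with passages of both signs in each line for ONECUT2.

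**Figure D3:**
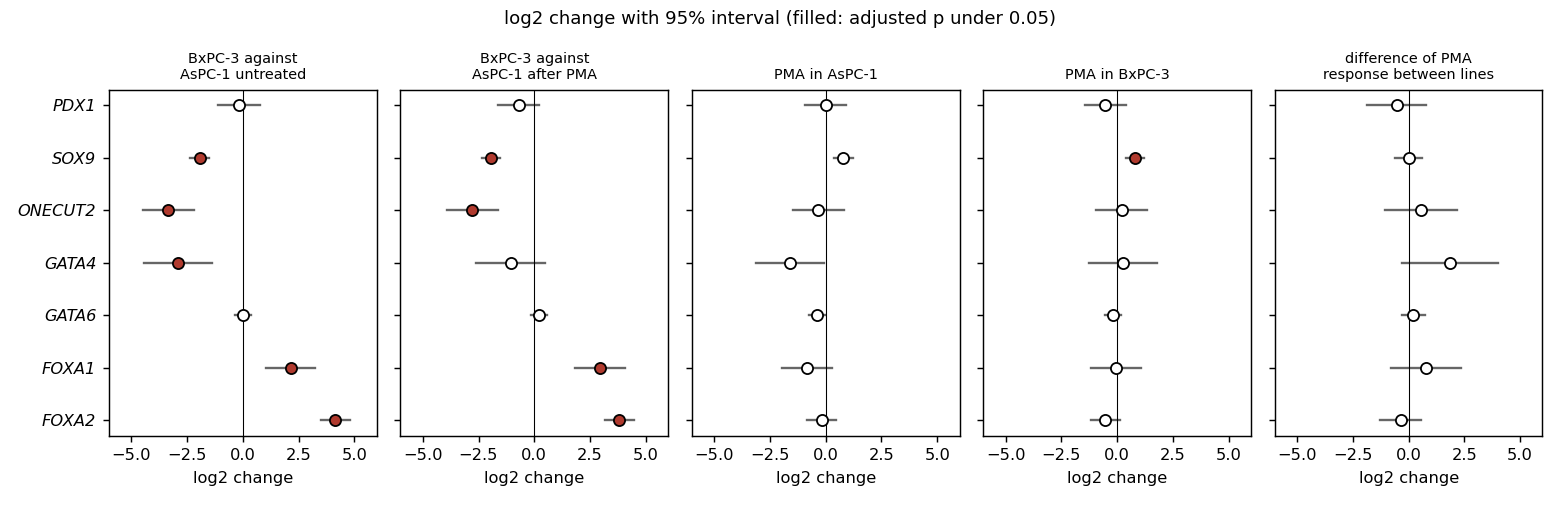
Differences of the 7 factors in log2(signal + 3) units with 95% intervals, for BxPC-3 against AsPC-1, for PMA in each line and for the difference of responses, with filled points for an adjusted p under 0.05. Line differences reach 4.16 for FOXA2, whereas the PMA differences of SOX9 are 0.79 in both lines.

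**Figure D4:**
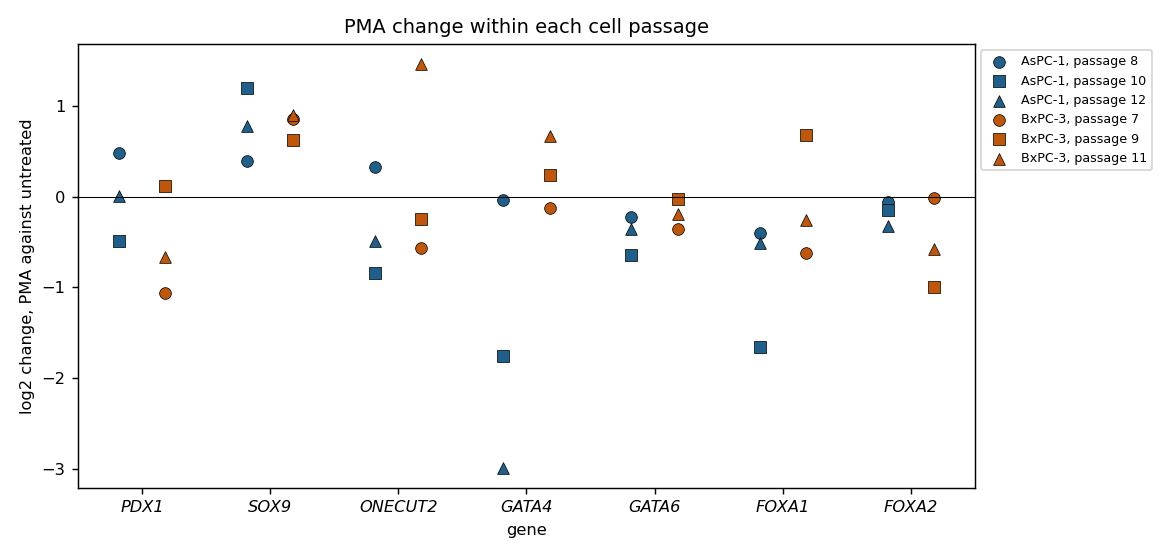
Difference of PMA from untreated arrays within each passage, in log2(signal + 3) units, for the 7 factors in AsPC-1 (passages 8, 10 and 12) and BxPC-3 (passages 7, 9 and 11). All 6 SOX9 points lie above 0 and all 6 GATA6 points below 0, and the GATA4 points of AsPC-1 spread from -0.04 to -2.99.

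Of 30 other listed factors of the endoderm and pancreas, 17 were tested. In untreated cells 10 of them were lower in BxPC-3 and 1 higher, where 15.6% and 16.8% of all genes were, with a median difference of -1.26 against -0.08 over all genes tested. NR5A2, a nuclear receptor of acinar and progenitor cells, had a signal of 216 ± 23.0 in AsPC-1 and 6.69 ± 5.00 in BxPC-3 (SD, n = 3; -4.67 ± 0.49 SE), HNF4G 303 ± 58.5 and 36.4 ± 5.41 (-2.95 ± 0.23), and BHLHA15, a secretory-cell factor, 66.8 ± 32.1 and 14.6 ± 6.94 (-1.97 ± 0.50). The epithelial factor KLF5 was the one higher in BxPC-3, by 0.59 ± 0.21 (adjusted p = 0.0424), a call lost in 10 of 23 alternative fits. ONECUT1 and ONECUT3, paralogues of ONECUT2, were lower in BxPC-3 by 1.26 and 1.55 on the log2 scale, and FOXA3, a paralogue of FOXA1 and FOXA2, was lower there as well, by 1.36. ONECUT3 was dim, with untreated means of 30.8 in AsPC-1 and 9.41 in BxPC-3, and so was FOXA3, with 18.8 and 6.13. After PMA limma called neither ONECUT1 (-0.15, adjusted p = 0.827) nor ONECUT3 (0.41, adjusted p = 0.415), but did call FOXA3 (-2.47, adjusted p = 0.000264). The count of 11 called was 5 without AsPC-1 untreated replicate 1 and 7 without replicate 3. After PMA 6 of the 17 were lower and 1 higher, where 15.2% and 18.3% of all genes were, and the median was -0.15 against 0.03 over all genes tested.

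Genes that mark the classical tumour subtype, of which GATA6 is a known marker, differed in both directions between the untreated lines. Of 22 tested, 11 were lower and 6 higher in BxPC-3, where 15.6% and 16.8% of all genes were, with a median of -1.63. CDH17, an intestinal cadherin, was at 5204 ± 560 in AsPC-1 and 9.40 ± 3.96 in BxPC-3 (-8.76 ± 0.25). LYZ, the gene read above as a leukocyte marker (-8.73 ± 0.31), and CLRN3 (-7.29 ± 0.52) were lower too. ANXA10, a gastric annexin, was higher in BxPC-3, with 115 ± 85.0 against 4439 ± 667 (5.50 ± 0.54), and so were VSIG2 (2.26 ± 0.40) and the protease CTSE (2.17 ± 0.38). After PMA 10 were lower and 5 higher, where 15.2% and 18.3% of all genes were.

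On the squamous side, 14 of 22 tested p63 partner and target genes were higher in untreated BxPC-3 and 2 lower, with a median of 1.94. Of all genes, 16.8% were higher and 15.6% lower. The basal keratin KRT5 had a signal of 7.70 ± 4.08 in AsPC-1 and 3228 ± 327 in BxPC-3 (8.32 ± 0.36, adjusted p = 1.19e-09). The stem-cell factor SOX2 was at 3.97 ± 1.31 and 361 ± 34.5 (5.72 ± 0.31), and TRIM29 at 34.0 ± 7.53 and 1704 ± 113 (5.55 ± 0.29). Both kept the call in all 23 alternative fits, with differences down to 2.13 for SOX2 and 3.64 for TRIM29. KRT5 and SOX2 had means below the filter level in AsPC-1. Their line p-values do not allow for passing the filter largely through BxPC-3. The hemidesmosome genes ITGB4 (-1.56 ± 0.38, and -0.94 at the least in alternative fits) and DST (-1.54 ± 0.17) were lower, DST with 0.24 and no call when its probe sets were averaged. After PMA 13 were higher and 2 lower, where 18.3% and 15.2% of all genes were.

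Basal-like subtype genes had 12 of 19 higher and 3 lower in untreated BxPC-3, with a median of 2.64, where 16.8% and 15.6% of all genes were. They had 13 higher and 2 lower after PMA, where 18.3% and 15.2% of all genes were. LY6D was at 2.36 ± 0.96 in AsPC-1 and 1347 ± 210 in BxPC-3 (7.98 ± 0.27), the serpin SERPINB3 at 10.1 ± 4.48 and 1846 ± 512 (7.17 ± 0.32), and the cornified envelope gene SPRR1B at 8.58 ± 1.91 and 1480 ± 474 (6.96 ± 0.40). Lower were UCA1 (-1.24 ± 0.25), LEMD1 (-1.07 ± 0.32) and FAM83A (-0.95 ± 0.28), the last 2 with calls lost in 4 and 3 of 23 alternative fits.

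Duct genes, to which SOX9 belongs by role, had no common direction. Of 14 tested, 3 were higher and 4 lower in untreated BxPC-3, where 16.8% and 15.6% of all genes were, with a median of -0.16. After PMA the counts were the same, where 18.3% and 15.2% of all genes were, but the median was 0.54. The called genes were not all the same, since CA2 was called lower only after PMA (-1.29). The secreted SPP1 had signals of 3.85 ± 1.76 in AsPC-1 and 1340 ± 682 in BxPC-3 (7.52 ± 0.50), and MUC1 (2.15 ± 0.35) and CLDN1 (1.71 ± 0.14) were higher too. EPCAM (-1.38 ± 0.15), ANXA4 (-1.38 ± 0.21) and CLDN4 (-1.75 ± 0.57) were lower, CLDN4 with its call lost in 7 of 23 alternative fits. The lists were chosen with results of these samples known and were not tested as sets, so their counts describe these lines. Several named genes had untreated means below the filter level in the line where they were lower. Among them were KRT5, SOX2, LY6D and SPP1 in AsPC-1 and LYZ and CLRN3 in BxPC-3. Such genes passed the filter largely through the other line, and neither their line p-values nor the counts allow for that.

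**Figure D5:**
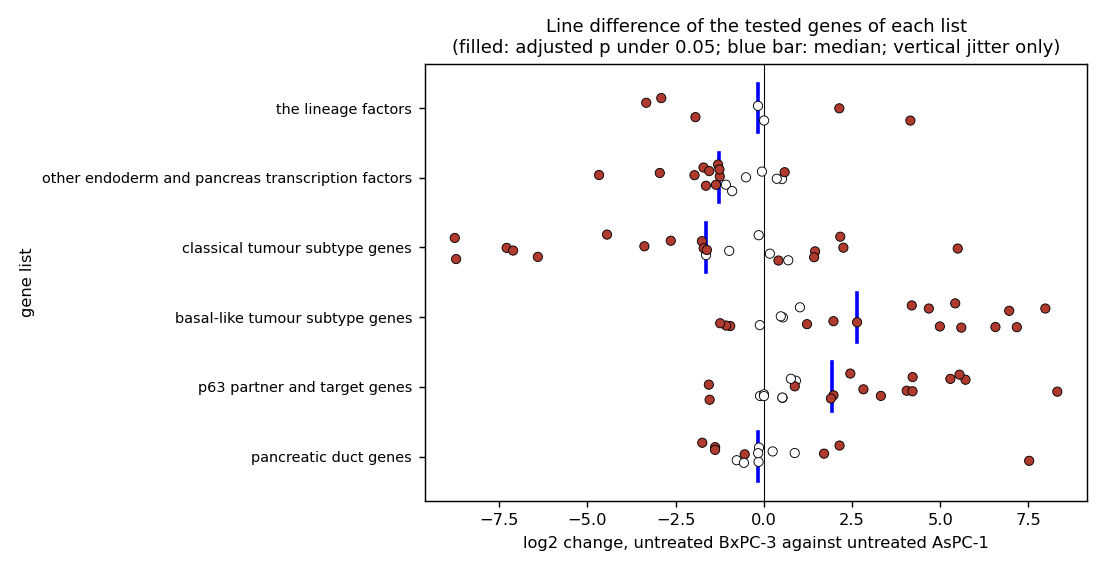
Differences of BxPC-3 from AsPC-1 in untreated cells, in log2(signal + 3) units, for the 7 factors and each tested gene of the 5 lists, with filled points for an adjusted p under 0.05 and a blue bar for the median. List medians run from -1.63 for classical subtype genes to 2.64 for basal-like genes, beside -0.08 over all genes tested.

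With PMA, 5.82% of all tested genes were called in BxPC-3 and 1.96% in AsPC-1, and the counts of these lists are to be read beside those shares. In BxPC-3 limma called 1 of 17 endoderm factors (ONECUT3, 1.62 ± 0.35, adjusted p = 0.0167), 0 of 22 classical genes (1 at an unadjusted p under 0.05), 0 of 19 basal-like genes (4 at an unadjusted p under 0.05), 3 of 22 p63 partner and target genes and 2 of 14 duct genes. ZNF750, a differentiation factor downstream of p63, rose from 49.3 ± 10.1 to 286 ± 40.1 (2.47 ± 0.37, adjusted p = 0.00199). SOX2 fell from 361 ± 34.5 to 74.4 ± 31.4 (-2.30 ± 0.31, adjusted p = 0.00110, and -1.28 at the least in alternative fits) and the cadherin FAT2 from 131 ± 12.6 to 38.6 ± 5.02 (-1.69 ± 0.34, adjusted p = 0.0115). CLDN4, a claudin of tight junctions, was raised from 86.4 ± 15.9 to 1778 ± 216 (4.33 ± 0.57, and 1.96 at the least in alternative fits, called in all 23) and CLDN1 by 0.52 ± 0.14 (adjusted p = 0.0492, lost in 14 of 23 alternative fits). Calls of ONECUT3 were lost in 4 and of FAT2 in 2 of 23 alternative fits, each without 1 BxPC-3 array.

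In AsPC-1 the single call over the 5 lists was FAM83A, which rose from 769 ± 250 to 2619 ± 1135 (1.74 ± 0.28, adjusted p = 0.00836). Without AsPC-1 PMA replicate 1, limma called 6 endoderm factors, 1 classical, 2 basal-like, 4 p63 partner and target and 2 duct genes in AsPC-1. The same omission, which also enters the fit for the other line through the shared spread, gave 5, 1, 2, 5 and 2 in BxPC-3. In that fit 14.87% of all genes were called in BxPC-3 and 19.55% in AsPC-1.

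The genes whose pattern over the 12 arrays was nearest to each factor were found from the root mean square difference of log2 values, each gene centred on its own mean. SOX9 was nearest to RALGPS2 (0.18), FEM1C (0.27) and FER (0.28), and RALGPS2 had a line difference of -2.04 and PMA differences of 0.52 in AsPC-1 and 0.66 in BxPC-3. FOXA2 was nearest to SFTA1P (0.26), PTGFRN (0.30) and SEMA3F (0.31), and FOXA1 to PLEKHF1 (0.38), MECOM (0.40) and LTBP4 (0.41). ONECUT2 was nearest to RIN3 (0.45), TECPR1 (0.46) and CHST4 (0.47), and GATA4 to HOXB4 (0.44), ZBTB7B (0.67) and TLR1 (0.68). GATA6 was nearest to VMA21 (0.10), THUMPD2 (0.11) and SFXN4 (0.12), and PDX1, at its low signal, to PCDHA9 (0.27), ERC2-IT1 (0.28) and ERICH4 (0.29). In AsPC-1 the PMA difference of HOXB4 was -1.48 and that of GATA4 -1.59. These are descriptions over 12 arrays of the same 2 lines, chosen among all genes tested. The genes were picked for nearness on these same arrays, so their like line and PMA differences follow from the choice.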

How the data were processed

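The authors deposited linear signal intensity for 54675 probe sets on 12 arrays, made with MAS5 per the submitters' processing notes (version not stated there). Mean signal after trimming 2% at each end lay between 100.01 and 100.02 on all arrays. No detection calls were used here. Precision is limited by the number of arrays, and p-values measure the spread between cell passages.

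Signals were turned into log2(signal + 3). Of the probe sets, 41091 name 1 symbol, 1801 several and 11721 none, per an annotation that can be old. Of the first kind, 41037 matched the reference table GRCh38.p14, used for names. The probe set with the highest mean log2 signal stood for a gene. For ONECUT2 a mean of linear signals would pick its second set instead. Genes above the 40th percentile on at least 3 arrays were tested. Group means were fitted with limma 3.58.1 in R 4.3.3 (eBayes with trend, 8 residual degrees of freedom, two-sided tests). With 3 against 3 arrays the smallest p of an exact test is 0.1. Figures used matplotlib 3.10.9.

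The members and lists were chosen with earlier results of these data known. Genes named from lists are, per comparison and direction, up to 3 called genes with the largest change with groups that do not overlap, a condition not set for the difference of responses. The paralogues ONECUT1, ONECUT3 and FOXA3 were named in the line comparison after their values were seen. The nearest 3 genes per factor were also fixed by rule. Passages pair arrays within a line per the labels. The correlation of paired arrays' deviations from their group means, across genes, was 0.41, 0.21 and 0.16 for AsPC-1 pairs and -0.05, -0.13 and -0.06 for BxPC-3 pairs. Alternatives were other scalings, pseudocounts, filters, probe sets, spreads, a replicate block and leaving out each array. In simulated data for PMA in BxPC-3 (16099 genes, 3 rounds of 200 changed genes) the fit recovered 25.3% of 2-fold and 70.3% of 4-fold changes, with 4.33% false calls.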

Additional observations from a re-analysis of the deposited data

Results flagged for a closer look

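The PMA responses of 2 p63 partner and target genes differed between the lines by limma's test of the difference. For ZNF750 the response in BxPC-3 exceeded that in AsPC-1 by 2.68 ± 0.52 on the log2 scale (SE, adjusted p = 0.0425), with signals near 2 in both AsPC-1 groups. That call was lost in 14 of 22 alternative fits, with adjusted p up to 0.164. For SOX2 the difference was -2.39 ± 0.44 (adjusted p = 0.0342), with AsPC-1 signals of 3.97 ± 1.31 and 4.46 ± 1.67 (SD, n = 3), below the filter level. The SOX2 call was lost in 12 of 22 alternative fits, with adjusted p up to 0.366. The part of the ACTB ratio, which moved with PMA in BxPC-3, was not tested.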

How the results depend on the processing

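The line differences of FOXA1, FOXA2, SOX9 and ONECUT2, untreated and after PMA, and of GATA4 untreated kept their direction and calls under every alternative except the next probe set. With that probe set 2 factors were called in each line comparison, and FOXA2 untreated was -0.44. It also turned SOX9 with PMA in BxPC-3 (-0.55), GATA6 with PMA (0.0688 in BxPC-3, 0.0402 in AsPC-1) and untreated (-0.0201), FOXA2 with PMA (1.24 in BxPC-3, 0.12 in AsPC-1), GATA4 between lines after PMA (0.42), and the response differences of SOX9 (-1.66), FOXA1 (-1.25) and FOXA2 (1.12). PMA in BxPC-3 gave 0 called factors with that probe set, with the mean of probe sets and without trend, and 0 to 1 leaving out each array. PMA in AsPC-1 gave 1 with the 60th percentile filter and 0 to 3 leaving out each array.

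Values turned by the mean of probe sets were FOXA2 with PMA (0.0287 in BxPC-3, 0.0411 in AsPC-1), GATA6 untreated between lines (-0.00666), and the response differences of SOX9 (-0.83) and FOXA1 (-0.23). Quantile normalization turned FOXA1 with PMA in BxPC-3 (0.0492) and PDX1 with PMA in AsPC-1 (0.0302). Median centring turned the same values (0.0655 and 0.221), FOXA2 with PMA in AsPC-1 (0.0478), GATA6 untreated between lines (-0.0310) and the SOX9 response difference (-0.0904). A pseudocount of 16 turned PDX1 with PMA in AsPC-1 (0.00551) and the SOX9 response difference (-0.0460). Of these results, those called in the report are SOX9 with PMA in BxPC-3 and FOXA2 between untreated lines, and none was called with the sign turned. The cause was not tested. Leaving out each array gave -0.21 to 0.74 for ONECUT2, -0.31 to 0.63 for GATA4 and -0.36 to 0.20 for FOXA1 with PMA in BxPC-3, -0.26 to 0.30 for PDX1 with PMA in AsPC-1, -0.361 to 0.0913 for PDX1 and -0.14 to 0.10 for GATA6 between untreated lines, and -0.19 to 0.13 for the SOX9 response difference.

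With the passage as a replicate block, PMA in AsPC-1 gave 1 called factor, SOX9, and no other call of a factor changed. Over all genes the block gave 1645 calls for PMA in BxPC-3 and 904 in AsPC-1, against 937 and 316, and 126 against 79 for the difference of responses. Median centring moved the median of all genes to 0.13 from 0.00 with PMA in BxPC-3 and to 0.13 from -0.10 in AsPC-1, and the share of higher genes among those called to 53.5% from 43.2% and to 75.9% from 63.3%. With the arrays of a comparison alone, 3535 genes were called in BxPC-3 and 0 in AsPC-1. Signals near those of PDX1 or of FOXA2 in AsPC-1 were not tested against background.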
